A study of Mus musculus with 42 samples.

Results

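The Jun and Fos family comprises 7 genes, Jun, Junb, Jund, Fos, Fosb, Fosl1 and Fosl2, chosen by name from 21897 protein-coding genes, and all 7 were found in the data. RNA polymerase II (Pol II) and H3K27ac, the acetylated histone H3 found on promoters and enhancers in use, were measured by ChIP-seq in bone marrow-derived macrophages (BMDMs) of male C57Bl6/J mice aged 6 to 12 weeks. The cells had been cultured for 7 days with L929-conditioned medium, and came from wild-type littermates (WT) or from mice lacking Nr4a1, the gene of the nuclear receptor Nur77, in the whole body (Nur77-KO). The deletion was made by crossing floxed mice with a CMV-Cre line. The study's methods state that the Cre was bred out, whereas the genotype label of the knockout libraries reads "cre". Each genotype was left unstimulated (0 h) or was stimulated with 100 ng/ml lipopolysaccharide (LPS) for 1 h or 18 h, which gave 6 groups with 3 libraries per antibody, 36 ChIP libraries in all, and 1 input library per group. The catalogue number of the Pol II antibody is not the same in the labels and in the methods. The methods call replicates biological but, like the labels, do not say whether the 3 libraries of a group came from separate mice, so a p-value here measures the spread between these libraries. All libraries are of bulk cells, in which fewer cells with Pol II on a gene and less Pol II per cell cannot be told apart.

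Proteins of the family form the dimeric transcription factor AP-1. Jun proteins pair with each other or with Fos proteins, whereas Fos proteins need a Jun partner, and the dimers bind the TPA response element TGAGTCA or the related cyclic AMP response element. Fos, Jun, Fosb and Junb are textbook immediate-early genes, transcribed within minutes of a stimulus without new protein synthesis and shut off again soon after. In macrophages, Toll-like receptor signalling reaches them through MAP kinases, serum response factor and its ternary complex partners, and AP-1 acts beside NF-kB on cytokine genes.

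Sequencing depth was 21.7 to 36.1 M tags (M, mega, as in 10 M below) in the Pol II libraries, and 13.5 to 31.1 M in the WT and 23.6 to 55.4 M in the KO H3K27ac libraries. Values are normalized tags, that is, tags per 10 M, in regions called separately in each library, and a value of 0 says that no region passed the calling threshold. Some H3K27ac libraries stood apart from their labelled groups across 10437 gene starts. The library labelled KO 1 h replicate 1 correlated at 0.978 to 0.98 with the WT 1 h libraries but at 0.91 and 0.912 with the libraries labelled KO 1 h replicates 2 and 3, which correlated with each other at 0.991 and with the WT 1 h libraries at 0.903 to 0.905. For comparison, KO and WT libraries of the same time correlated at 0.981 to 0.985 at 0 h and, for KO replicates 2 and 3, at 0.979 to 0.982 at 18 h. The library labelled KO 18 h replicate 1 correlated at 0.913 and 0.914 with its own group, at 0.906 to 0.908 with the WT 18 h libraries and at 0.904 and 0.905 with KO 1 h replicates 2 and 3. The main H3K27ac results that rest on these libraries are therefore given with all libraries, without both replicate 1 libraries, and without KO 1 h replicates 2 and 3 and KO 18 h replicate 1. The last fit leaves 1 library in the KO 1 h group, which is assumed to vary like the other groups, so its p-values for that group have no replicate check of their own. Pol II over the targeted gene Nr4a1 at 0 h was 189, 188 and 208 normalized tags in WT and 87.8, 76.1 and 70.2 in KO, a log2 difference of -1.22 ± 0.17 (adjusted p = 1.2e-04). At 1 h the KO values of 33.5, 39.0 and 36.6 lay above the WT values of 25.5, 23.0 and 30.4. That difference of 0.36 ± 0.17 (adjusted p = 0.093) was not called. At 18 h WT had 7.46, 5.98 and 0 and KO no called region, a difference of -0.49 ± 0.17 (adjusted p = 0.046). A whole-gene window of Pol II does not show which exons were deleted. All 7 macrophage markers carried Pol II in all 18 libraries, with sums of 19309 to 41839 in WT and 16731 to 36237 in KO. T cell markers (3 genes, Cd3e at 0) summed to 136 to 190.2, neutrophil markers (4 genes, Ly6g, Elane and Mpo at 0) to 0 to 16.6 in WT and 0 to 45.3 in KO, dendritic cell markers (2 genes) to 25.4 to 73.2 and fibroblast markers (3 genes, Col1a1 and Col3a1 at 0) to 0 to 6.21. In the KO against WT comparison at 1 h, 4 of 7 macrophage markers were lower, 1 was higher, and their median log2 difference was -0.52; at 18 h 5 were lower and 1 higher. Of all genes 45.6% were called at 1 h and 20.9% at 18 h, and with library medians centred 5 markers were lower at 1 h and 3 at 18 h. The 1 neutrophil marker tested, S100a8, was higher in KO at 1 h by 1.15 on the log2 scale, and by 0.90 (adjusted p = 0.0015) with centred medians. The part of these markers in the results below was not tested.

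The Jun subfamily holds Jun, Junb and Jund. Jun (chr4:95049034-95052222, minus strand, GRCm38) encodes c-Jun, the principal transactivating partner of Fos. Over the gene with 500 bp added at each end, Pol II in WT was 906, 975 and 1024 normalized tags at 0 h, 207, 220.0 and 224 after 1 h and 655, 612 and 616 after 18 h. In KO the values were 878, 891 and 798 at 0 h, 346, 368 and 367 after 1 h and 482, 491 and 473 after 18 h. In both genotypes the 1 h libraries were the lowest of the 3 times without overlap, and at 1 h all KO libraries lay above all WT libraries, whereas at 18 h all lay below. The 250 bases before the RefSeq start of Jun (chr4:95052223-95052472, minus strand, GRCm38.p6) are shown because Jun is the member whose Pol II response to LPS differed most clearly between genotypes at 1 h, with capitals marking the AP-1 variant TGACATCA that begins 45 bases before the start.
Jun promoter: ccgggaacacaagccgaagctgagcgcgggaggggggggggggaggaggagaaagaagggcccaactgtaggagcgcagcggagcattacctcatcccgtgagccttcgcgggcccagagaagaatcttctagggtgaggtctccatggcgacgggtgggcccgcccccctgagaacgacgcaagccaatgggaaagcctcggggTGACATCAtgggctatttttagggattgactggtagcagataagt

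Promoters were searched for 7 motifs in the 250 bases before the start, on both strands except for TATAAA, which was read on the strand of the gene. Of the variant TGACATCA, 2.93% of 32851 RefSeq promoters of that length held a copy. The AP-1 motif TGAGTCA was in 4.46% of these promoters, the cyclic AMP response element TGACGTCA in 1.55%, and AAAGGTCA, the sequence that Nur77 binds as a monomer, in 1.34%. The variant TGACGTTT was in 0.344% and the serum response element, by its CArG box, in 1.47%. None of these last 5 was found in this window of Jun. No match of one of these AP-1 or cyclic AMP motifs is at the same time a match of another, and a match here is a description of letters, not of binding.

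Junb (chr8:84974484-84978718, minus strand) encodes the partner that often restrains c-Jun on shared sites. Its WT Pol II was 1053, 1098 and 963 at 0 h, 2773, 2036 and 2171 after 1 h and 1546, 1539 and 1517 after 18 h, and its KO Pol II was 1133, 1249.6 and 1052 at 0 h, 2900.0, 2659 and 2714 after 1 h and 1534, 1548 and 1484 after 18 h. Junb was the member with the highest 1 h values, and all its 1 h libraries lay above all its 0 h and 18 h libraries. The 3' end of Junb overlaps Prdx2, and the called regions ran on past both genes, so part of the window's tags cannot be assigned to Junb alone, and since tags were spread evenly over a region the part outside Prdx2 gives no separate measure.

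Jund (chr8:70698949-70700616, plus strand), an intronless gene whose product is abundant in resting cells and can oppose proliferation, varied least. Its WT values were 242, 269 and 273 at 0 h, 314, 324 and 335 after 1 h and 317, 365 and 349.6 after 18 h. The corresponding KO values were 356, 340.3 and 305 at 0 h, 378, 344 and 358 after 1 h and 334, 350.1 and 327 after 18 h. At 0 h the lowest KO library lay above the highest WT library, whereas at 18 h the genotypes overlapped.

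The Fos subfamily holds Fos, Fosb, Fosl1 and Fosl2. Fos (chr12:85473890-85477273, plus strand) encodes c-Fos, the classical immediate-early partner of c-Jun. Pol II over Fos in WT was 1502, 1591 and 1464 at 0 h, 412, 382 and 384 after 1 h and 641, 622 and 688 after 18 h. In KO it was 1457, 2028 and 1277 at 0 h, 561, 514 and 499 after 1 h and 458, 466 and 472 after 18 h. KO 0 h replicate 2 was the highest Fos library of all, at 2028, and the genotypes overlapped at 0 h but neither at 1 h, where KO was higher, nor at 18 h, where KO was lower. The 250 bases before the Fos start (chr12:85473640-85473889, plus strand) are printed as the promoter of the gene with the largest Pol II level per kilobase at 0 h, and capitals mark the TATA box TATAAA, which begins 33 bases before the start and was found in 7.59% of RefSeq promoters.
Fos promoter: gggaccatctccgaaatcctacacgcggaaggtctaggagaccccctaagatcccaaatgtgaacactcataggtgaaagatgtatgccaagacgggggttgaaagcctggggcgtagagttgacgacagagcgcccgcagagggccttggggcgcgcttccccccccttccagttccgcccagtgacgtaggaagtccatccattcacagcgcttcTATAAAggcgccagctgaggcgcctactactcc

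Fosb (chr7:19302696-19310051, minus strand) encodes a c-Fos relative whose long isoform carries a transactivation domain. Its values were low, in WT 84.8, 89.6 and 105 at 0 h, 27.6, 32.0 and 21.7 after 1 h and 103, 102 and 114 after 18 h. In KO they were 93.3, 98.6 and 69.2 at 0 h, 34.5, 44.7 and 37.3 after 1 h and 101, 106 and 91.4 after 18 h. In both genotypes the 1 h libraries lay below all others, and at 1 h every KO library was above every WT library. The input of the WT 1 h group held 23.5 in this window, so the WT 1 h values were near their own input. The input of the KO 1 h group held 8.78.

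Fosl1 (chr19:5447547-5455946, plus strand) encodes Fra-1, a Fos relative that lacks the transactivation domain of c-Fos and is itself a classical AP-1 target. In WT its window held 108, 152 and 124 normalized tags at 0 h, 5.34, 13.1 and 17.2 after 1 h and 42.1, 30.1 and 19.0 after 18 h. In KO it held 172, 119.6 and 119.7 at 0 h, 8.53, 11.6 and 13.4 after 1 h and 6.37, 1.69 and 7.73 after 18 h. The values after LPS were small, and at 18 h the highest KO library was below the lowest WT library. The 3' part of Fosl1 overlaps Ccdc85b. In the 6.13 kb outside Ccdc85b, the 18 h values were 11.6, 14.7 and 6.29 in WT and 6.37, 0 and 7.73 in KO, which overlap. The part shared with Ccdc85b held 30.5, 15.4 and 12.7 in WT and 0, 1.69 and 0 in KO, so the genotype difference of the window at 18 h lay mostly where the 2 genes cannot be told apart.

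Fosl2 (chr5:32135801-32157842, plus strand), the longest member, encodes Fra-2, the other Fos relative without that domain. WT values were 1071, 1253 and 1186 at 0 h, 949.8, 952 and 919 after 1 h and 157, 162 and 175 after 18 h. KO values were 1287, 1258 and 1278 at 0 h, 1044, 1010.1 and 1060.5 after 1 h and 118, 146 and 119.8 after 18 h. Fosl2 differed from the other members in keeping most of its Pol II at 1 h and losing it by 18 h. At 0 and 1 h a single region covered 100.0% of the window in all 12 libraries, whereas at 18 h the called regions covered 21.5% to 26.3% of it in WT and 16.6% to 21.1% in KO.

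**Figure D1:**
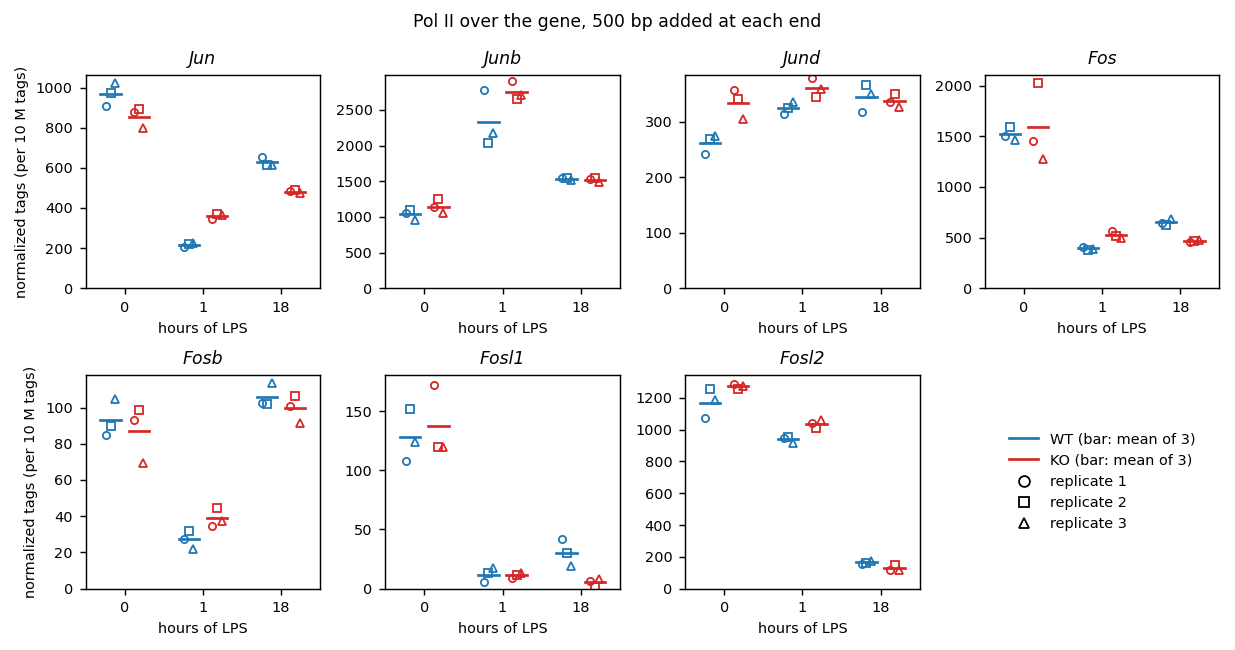
Pol II over each member with 500 bp added at each end, in normalized tags per 10 M tags (vertical axis, from 0), against hours of LPS, with WT in blue, KO in red, markers for replicates 1 to 3 and a bar for the mean of 3. Junb stands highest at 1 h, Jun, Fos, Fosb and Fosl1 lowest or near their lowest, and Fosl2 falls to 118 to 175 at 18 h.

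Levels were compared between members as Pol II per kilobase of window. In WT at 0 h the order was Fos (346 ± 14.9 normalized tags per kb, SD, n = 3), Jun (231 ± 14.2), Junb (198 ± 13.2), Jund (97.9 ± 6.40), Fosl2 (50.8 ± 4.0), Fosl1 (13.6 ± 2.36) and Fosb (11.1 ± 1.26), and of neighbours in this order the ranges of Fosl1 and Fosb alone overlapped. At 1 h Junb led with 445 ± 74.9, followed by Jund with 122 ± 3.97, Fos with 89.5 ± 3.85 and Jun with 51.8 ± 2.20. At 18 h Junb led again with 293 ± 2.81, ahead of Jun with 149.8 ± 5.68 and Fos with 148 ± 7.70, whose ranges overlapped. In KO the order at 0 h was the same except that Junb (219 ± 19.0) preceded Jun (204 ± 12.1) with overlapping ranges. At 18 h in KO Jund (126 ± 4.45) stood above Jun (115 ± 2.20), the reverse of the WT order.

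The first comparison asked how LPS moved Pol II over the members. At 1 h in WT, Jun, Fos, Fosb, Fosl1 and Fosl2 fell, and Junb and Jund rose. All 7 passed limma's moderated test at an adjusted p under 0.05 over all genes, but so did 86.9% of 13240 genes, and 68.3% were lower, so the number of members called is close to the background. The log2 changes were -2.11 ± 0.07 (adjusted p = 6.3e-15) for Jun and -1.93 ± 0.11 (adjusted p = 3.2e-11) for Fos, that is, 4.31-fold and 3.8-fold lower on the scale of tags plus 10. Junb rose by 1.15 ± 0.09 (adjusted p = 2.0e-09), a 2.21-fold increase. Fosb changed by -1.48 ± 0.14, Fosl1 by -2.69 ± 0.24, Fosl2 by -0.31 ± 0.08 and Jund by 0.30 ± 0.08. The median of the members was -1.48 and the median of all genes -0.82.

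That shift of all genes matters for the small changes. With each library centred on its median, the split of all called genes went from 2456 higher and 9048 lower to 4920 higher and 5057 lower. Fosl2 then turned from lower to higher, at 0.49 in WT and 0.28 in KO. Jun, Fos, Fosb and Fosl1 stayed lower, and Junb and Jund higher, with log2 changes of -1.31, -1.13, -0.68, -1.89, 1.94 and 1.1 in WT.

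In KO at 1 h, 6 of 7 members were called beside 82.9% of 13267 genes. Jun fell by less than in WT, at -1.22 ± 0.07 (adjusted p = 1.6e-11). Fos changed by -1.55 ± 0.11, Fosb by -0.98 ± 0.14, Fosl1 by -2.79 ± 0.24, Fosl2 by -0.29 ± 0.08 and Junb by 1.26 ± 0.09. Jund was the member that was not called, at 0.11 ± 0.08 (adjusted p = 0.22). The Fosb fall was not called within 500 bp of its start, where values can include tags spread evenly from a longer region. Within 500 bp of its start, Pol II was 29.2, 26.9 and 33.9 at 0 h and 27.6, 31.9 and 21.7 at 1 h in WT, and the change there was -0.12 ± 0.22 (adjusted p = 0.66) in WT and 0.24 ± 0.22 (adjusted p = 0.38) in KO, of opposite sign in the 2 genotypes and not called in either. For Jun, Junb, Jund and Fos, whose regions spanned the whole window, the start window carries no separate information, because tags were spread evenly over a region.

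At 18 h in WT, 6 of 7 members were called beside 66.5% of 13359 genes, and 33.3% were called lower. Fosl2 had the largest change, -2.75 ± 0.08 (adjusted p = 2.5e-15), a 6.75-fold fall. Fosl1 changed by -1.80 ± 0.24, Fos by -1.21 ± 0.11 and Jun by -0.62 ± 0.07, while Junb rose by 0.56 ± 0.09 and Jund by 0.38 ± 0.08. Fosb was not called at 18 h, with a change of 0.17 ± 0.14 (adjusted p = 0.29) and overlapping 0 h and 18 h libraries. In KO, 5 of 7 were called beside 70.1% of 13417 genes. Fosl2 changed by -3.22 ± 0.08, Fosl1 by -3.27 ± 0.24, Fos by -1.72 ± 0.11, Jun by -0.81 ± 0.07 and Junb by 0.41 ± 0.09. Fosb and Jund were not called, at 0.19 and 0.02. Because 1 region spanned the whole Fosl2 window at 0 h, the values within 500 bp of its start there are the average of the gene, and no change at the start was read for Fosl2. No region was called within 500 bp of the Fosl1 start in any 18 h library of either genotype.

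**Figure D2:**
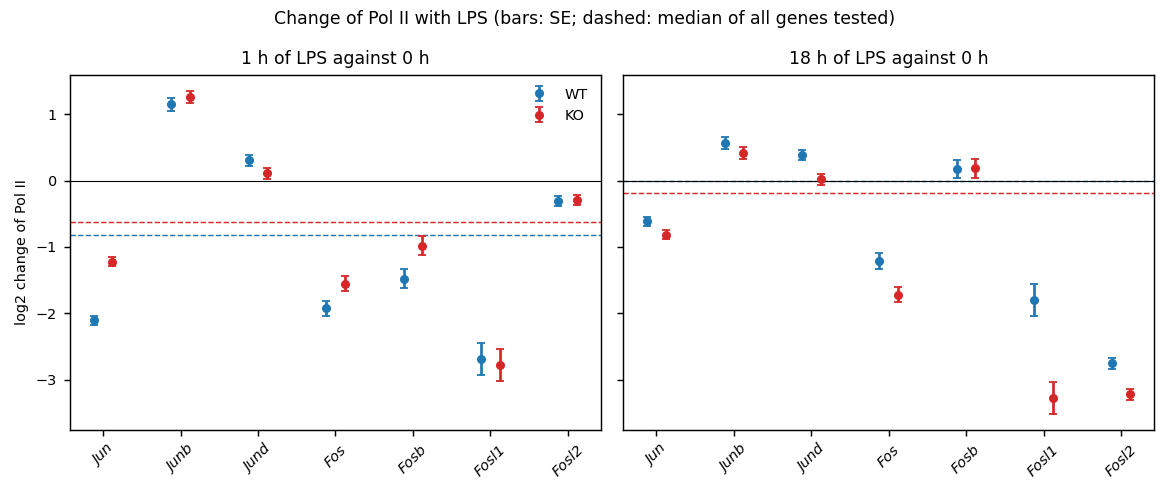
Log2 change of Pol II with LPS (vertical axis) for the 7 members at 1 h (left) and 18 h (right) against 0 h, with points for the limma estimate in WT (blue) and KO (red), bars for the SE and dashed lines for the median of all genes tested. Jun falls by 2.11 in WT and by 1.22 in KO at 1 h, and Fosl2 lies near 0 at 1 h and under -2.7 at 18 h.

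The second comparison set KO against WT at each time. At 0 h Jund alone was called, 1.27-fold higher in KO with a log2 difference of 0.34 ± 0.08 (adjusted p = 0.015), and 1 of 7 stands beside 6.88% of 13230 genes. Without KO 0 h replicate 1 or 2 the adjusted p was 0.069 or 0.051. The remaining differences ran from -0.18 for Jun to 0.14 for Junb.

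At 1 h Jun, Fos, Fosb and Junb were higher in KO. The log2 differences were 0.71 ± 0.07 (adjusted p = 6.0e-07) for Jun, a 1.63-fold difference, 0.41 ± 0.11 (adjusted p = 0.0080) for Fos, 0.40 ± 0.14 (adjusted p = 0.029) for Fosb and 0.26 ± 0.09 (adjusted p = 0.030) for Junb. Jund was at 0.14, Fosl2 at 0.14 and Fosl1 at -0.01, and none of these passed. The 4 calls of 7, all higher, stand beside 45.6% of 12079 genes called and 38.1% called higher. The median of all genes was 0.24, about that of the members, 0.26. With library medians centred, the split of all called genes went from 4602 higher and 910 lower to 1903 higher and 2556 lower. Jun was then the member still called, at 0.46 ± 0.06 (adjusted p = 2.9e-05), while Fos was at 0.16, Fosb at 0.15 and Junb at 0.01. Junb was not called without KO 1 h replicate 1 or 3 or without WT 1 h replicate 2 or 3 (adjusted p 0.055 to 0.17), and its difference turned to -0.12 when each region touching the window was counted whole. Fosb was not called without KO 1 h replicate 2 or WT 1 h replicate 3, with adjusted p of 0.12 and 0.13.

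At 18 h Jun, Fos, Fosl1 and Fosl2 were lower in KO, the opposite direction to 1 h for Jun and Fos. The log2 differences were -0.37 ± 0.07 (adjusted p = 8.3e-04) for Jun, -0.47 ± 0.11 (adjusted p = 0.0064) for Fos, -0.34 ± 0.08 (adjusted p = 0.0047) for Fosl2 and -1.38 ± 0.24 (adjusted p = 4.3e-04) for Fosl1, the last with the overlap with Ccdc85b given above. Junb was at -0.01, Jund at -0.03 and Fosb at -0.08. These 4 of 7, all lower, stand beside 20.9% of 12806 genes called and 13.4% called lower, with a median of all genes of -0.10. Centring moved the split of all genes from 967 higher and 1712 lower to 1952 higher and 992 lower. Jun, Fosl1 and Fosl2 were still called lower then, at -0.23, -1.25 and -0.21, and Fos was at -0.34 ± 0.12 (adjusted p = 0.055).

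**Figure D3:**
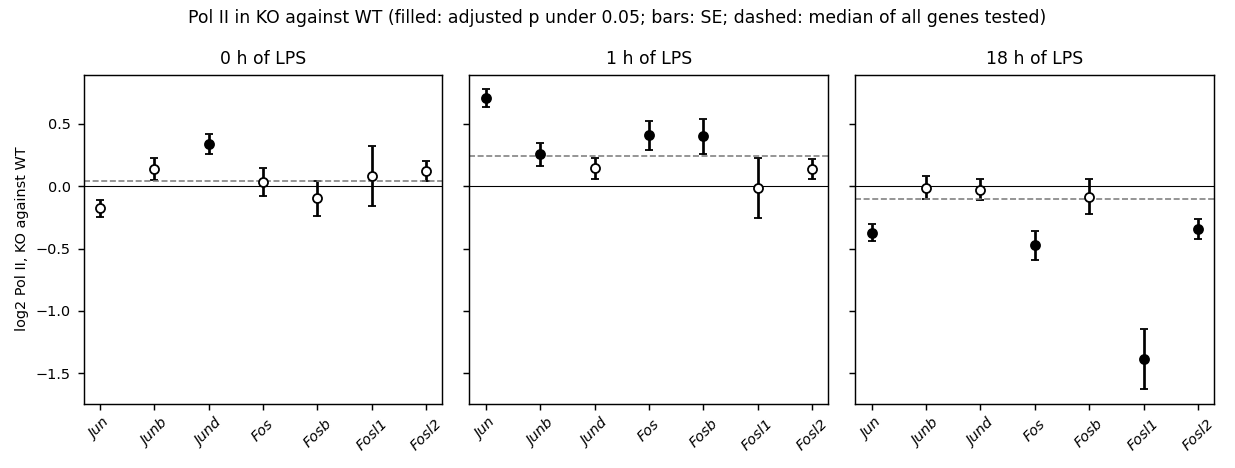
Log2 difference of Pol II between KO and WT (vertical axis) for the 7 members at 0, 1 and 18 h of LPS, with filled points for an adjusted p under 0.05, bars for the SE and a dashed line for the median of all genes tested. At 1 h Jun stands at 0.71, above the median of 0.24, and at 18 h Jun, Fos, Fosl1 and Fosl2 are filled and below 0.

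The third comparison tested whether the LPS change itself differed between genotypes. At 1 h Jun was the 1 member of 7 called, where 18.4% of 13426 genes were. Its LPS change was 0.88 ± 0.10 (adjusted p = 1.1e-05) higher in KO than in WT, that is, a smaller fall. It was called in each of the 12 fits that left out a library of the 4 groups compared, at 0.83 to 0.93, and was 0.66 ± 0.09 (adjusted p = 6.9e-05) with centred medians, where Jund was also called, at -0.42 ± 0.10 (adjusted p = 0.0076). Fos was at 0.37 ± 0.16 (adjusted p = 0.12) and Fosb at 0.50 ± 0.20 (adjusted p = 0.094). Fos was called without KO 0 h replicate 2, its highest library, at 0.56 ± 0.11 (adjusted p = 0.0024). At 18 h the change was lower in KO for Fosl2 (-0.47 ± 0.11, adjusted p = 0.0089), Jund (-0.37 ± 0.11, adjusted p = 0.039), Fos (-0.51 ± 0.16, adjusted p = 0.043) and Fosl1 (-1.47 ± 0.34, adjusted p = 0.0075). These 4 of 7 stand beside 14.7% of 13566 genes called and 9.89% called lower. With centred medians, Fosl2 (-0.30 ± 0.09, adjusted p = 0.028) and Fosl1 (-1.31 ± 0.35, adjusted p = 0.016) were called, and Jund and Fos were not, at -0.20 and -0.34. Jund and Fos were also not called in 7 and 9 of the 12 fits that left out 1 library, with adjusted p up to 0.095 for Jund and 0.097 for Fos. Without KO 0 h replicate 2 the Fos difference went from -0.51 to -0.32.

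H3K27ac was read within 2500 bp of each start. With all libraries, Jun was the member whose acetylation fell most at 1 h in both genotypes. In WT it had 1019, 1059 and 995 normalized tags at 0 h, 504, 473 and 482 after 1 h and 1059, 1049 and 1044 after 18 h, so that the 1 h libraries lay below all others and the 18 h libraries overlapped those of 0 h. In KO it had 1061, 1024 and 1011 at 0 h, 543, 726 and 726 after 1 h and 922, 917 and 892 after 18 h. The library labelled KO 1 h replicate 1, at 543, was nearer to the WT 1 h libraries than replicates 2 and 3 were.

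Fos had 661, 634 and 669 at 0 h, 389.5, 488 and 398 after 1 h and 743, 618 and 584 after 18 h in WT. Its KO values were 595, 712 and 693 at 0 h, 455, 480.2 and 432 after 1 h and 476, 492 and 643 after 18 h. In both genotypes the 1 h libraries of Fos lay below those of 0 h. Fosb had 119, 128 and 114 at 0 h, 66.3, 69.5 and 76.9 after 1 h and 88.1, 92.8 and 105 after 18 h in WT, against 128, 128 and 127 at 0 h, 90.5, 114 and 100.0 after 1 h and 136, 105 and 98.2 after 18 h in KO. At 1 h every KO library of Fosb lay above every WT library.

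Junb had the highest acetylation of the family in each of the 6 groups. It went from 1232, 1239.5 and 1345 at 0 h to 1807, 1553 and 1726 after 1 h and 1635, 1617 and 1709 after 18 h in WT. In KO it went from 1386, 1369 and 1339 at 0 h to 1721, 1697 and 1587 after 1 h and 1198, 1627 and 1712 after 18 h, where replicate 1 was the lowest Junb library of all.

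At Fosl2 acetylation, like Pol II, was lowest at 18 h. Its WT values were 707, 725 and 782 at 0 h, 733, 700.2 and 707 after 1 h and 325, 347 and 331 after 18 h, and its KO values 852, 815 and 850.0 at 0 h, 761, 663 and 623 after 1 h and 572, 278 and 278 after 18 h. The library labelled KO 18 h replicate 1 stood far above the other KO 18 h libraries at Fosl2. At the remaining starts, Jund ranged from 517 to 733 and Fosl1 from 31 to 107 over all libraries, and at Fosl1 KO 18 h replicate 1 was again apart, at 107 against 45.2 and 31.

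**Figure D4:**
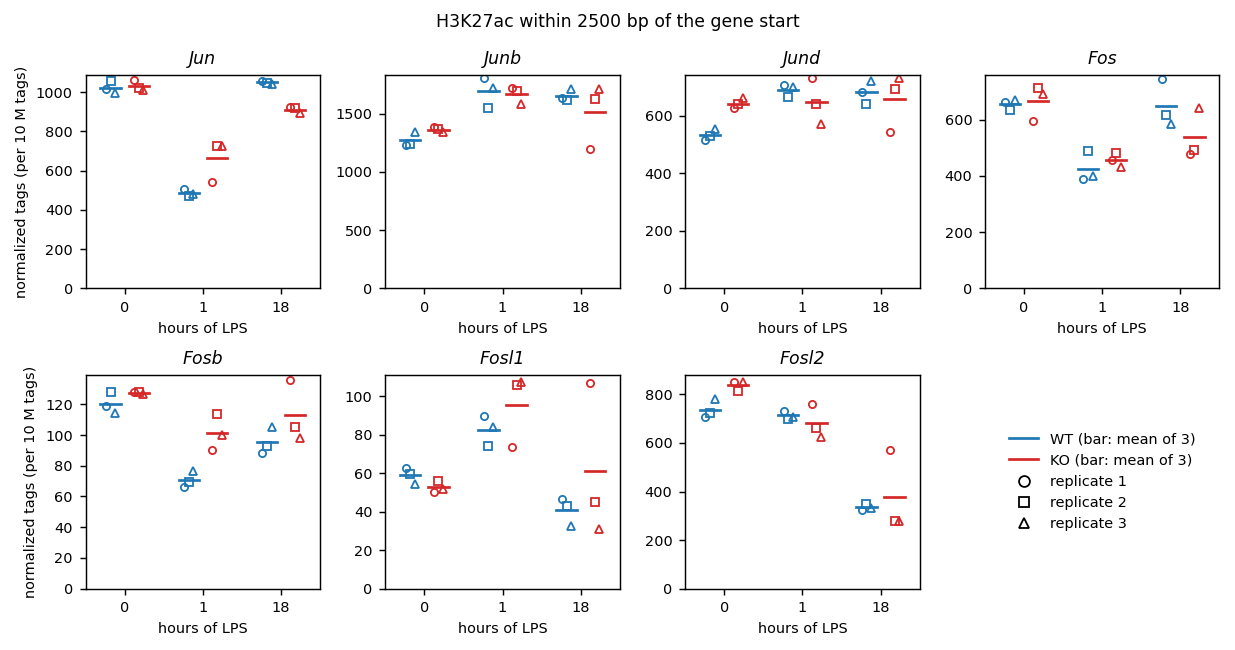
H3K27ac within 2500 bp of each member's start, in normalized tags per 10 M tags (vertical axis, from 0), against hours of LPS, with WT in blue, KO in red, markers for replicates 1 to 3 and a bar for the mean of 3. Jun drops at 1 h and Fosl2 at 18 h, and replicate 1 of KO (circles) lies apart from replicates 2 and 3 for Jun at 1 h and for Fosl2 at 18 h.

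At 1 h in WT, 5 of 7 starts were called beside 54.5% of 11916 genes, with Jun (-1.06 ± 0.09, adjusted p = 1.3e-07), Fosb (-0.69 ± 0.12) and Fos (-0.62 ± 0.12) lower and Junb (0.41 ± 0.11) and Jund (0.36 ± 0.10) higher. These were the directions of their Pol II. In both fits that left out KO libraries Fosl1 was also called, higher at 1 h (0.42, adjusted p = 0.0069 and 0.0098), the opposite direction to its Pol II, and lower at 18 h (-0.45, adjusted p = 0.0046 and 0.0066), with the same WT libraries as before. At 18 h, 4 of 7 were called beside 49.9% of 11803 genes, with Fosl2 (-1.12 ± 0.18, adjusted p = 1.1e-04) and Fosb (-0.31 ± 0.12, adjusted p = 0.046) lower and Junb (0.38 ± 0.11) and Jund (0.35 ± 0.10) higher. Jun, whose Pol II was still lower at 18 h, had an H3K27ac change of 0.04 ± 0.09 (adjusted p = 0.76). The Fosb call was lost in 5 of the 6 fits that left out a library of the groups compared.

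In KO at 1 h, 5 of 7 starts were called beside 46.9% of 12011 genes. Jun (-0.64 ± 0.09, adjusted p = 3.7e-05), Fos (-0.54 ± 0.12) and Fosb (-0.31 ± 0.12) were lower and Fosl1 (0.73 ± 0.27) and Junb (0.29 ± 0.11) higher. Without both replicate 1 libraries the Jun change was -0.50, and without the other 3 libraries -0.91, called in both fits. The Junb, Fosb and Fosl1 calls were lost in 5 or 6 of the 6 fits that left out 1 library. Without both replicate 1 libraries, however, Junb (0.26 ± 0.08, adjusted p = 0.0099), Fosb (-0.24 ± 0.09, adjusted p = 0.031) and Fosl1 (0.89 ± 0.14, adjusted p = 5.9e-05) were called, and Fosl2 (-0.38 ± 0.05, adjusted p = 3.0e-05) was called lower. Without the other 3, which leaves 1 KO 1 h library, Junb (0.33 ± 0.09, adjusted p = 0.0078) and Fosb (-0.45 ± 0.11, adjusted p = 0.0029) were called, Jund (0.18 ± 0.07, adjusted p = 0.041) was called higher, and Fosl1 (0.41 ± 0.18, adjusted p = 0.071) was not called. At 18 h in KO 2 of 7 were called beside 52.6% of 11999 genes, Fosl2 at -1.22 ± 0.18 (adjusted p = 4.4e-05) and Fos at -0.32 ± 0.12 (adjusted p = 0.038). Without KO 18 h replicate 1 Fosl2 was at -1.56, Fos at -0.24 ± 0.13 (adjusted p = 0.13) was not called, and Junb at 0.29 ± 0.09 (adjusted p = 0.0095) and Fosb at -0.30 ± 0.11 (adjusted p = 0.024) were. Without both replicate 1 libraries Fosl2, Junb and Fosb kept these changes and calls, and Jun (-0.19 ± 0.05, adjusted p = 0.0059) and Fosl1 (-0.40 ± 0.14, adjusted p = 0.020) were also called lower. Without the other 3 the same 5 members were called, and Jund (0.15 ± 0.06, adjusted p = 0.043) was called higher.

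Between genotypes, limma called 0 of 7 starts at 0 h, with 1 at an unadjusted p under 0.05, where 0.77% of 11817 genes were called, and 0 of 7 at 18 h, with 2 at an unadjusted p under 0.05, where 3.2% of 11465 were. At 1 h Jun (0.43 ± 0.09, adjusted p = 0.0070) and Fosb (0.46 ± 0.12, adjusted p = 0.021) were higher in KO. This was 2 of 7, beside 18.2% of 11828 genes called and 11% called higher. The Jun difference was 0.57 ± 0.05 (adjusted p = 3.8e-07) without both replicate 1 libraries and 0.16 ± 0.06 (adjusted p = 0.12) without the other 3. The Fosb difference was 0.53 ± 0.09 (adjusted p = 1.4e-04) and 0.32 ± 0.11 (adjusted p = 0.094) in the same fits, the latter with a single KO 1 h library. Without both replicate 1 libraries Fosl2 (-0.15 ± 0.06, adjusted p = 0.032) and Jund (-0.19 ± 0.06, adjusted p = 0.021) were also called, lower in KO at 1 h. At 18 h Jun and Fosl2 were not called without KO 18 h replicate 1 alone, at -0.21 ± 0.10 (adjusted p = 0.24) and -0.26 ± 0.08 (adjusted p = 0.070). They were called lower in KO with the same differences where KO 1 h libraries were left out as well, with an adjusted p of 0.013 or 0.015 for Jun and 0.0058 or 0.0064 for Fosl2. In the same fits Jund (0.26) and Fosl2 (0.18) were called higher in KO at 0 h, where no library was left out. The difference in LPS change was called for 0 of 7 members at 1 h, with 3 at an unadjusted p under 0.05, beside 0.535% of 12154 genes, and for 0 of 7 at 18 h, with 1 at an unadjusted p under 0.05, beside 0.605% of 12067. Without KO 1 h replicate 1 the Jun difference at 1 h was 0.56 ± 0.08 (adjusted p = 1.7e-04), without both replicate 1 libraries 0.56 ± 0.07 (adjusted p = 1.9e-05), and without the other 3 0.15 ± 0.07 (adjusted p = 0.30). In the fit without both replicate 1 libraries Fosb (0.45 ± 0.12) was also called in the direction of Jun at 1 h, and Fosl2 (-0.33 ± 0.07) and Jund (-0.45 ± 0.09) in the other, whereas none of the 7 was called without the other 3. At 18 h the change was lower in KO for Fosl2, at -0.44 ± 0.10 (adjusted p = 0.041) without KO 18 h replicate 1 and called in both exclusion fits, and for Jun (-0.22 ± 0.07, adjusted p = 0.049) without both replicate 1 libraries but not without the other 3 (adjusted p = 0.054).

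Enhancer-like signal around the members was described with H3K27ac regions merged over the 18 libraries. There were 55 such regions that reached within 50 kb of a member's start without touching its 2500 bp window, 6 around Jun, 4 around Junb, 7 around Jund, 10 each around Fos, Fosb and Fosl2 and 8 around Fosl1. A region near a member is not thereby its enhancer, and some hold the starts of other genes. A region was called when its adjusted p was under 0.05 and it had moved by more than 1 on the log2 scale. Of the 4 regions whose LPS response differed between genotypes, 3 held the AP-1 motif, a share near that of regions of like length. For the Jun region centred 31 kb before the start (chr4:95081019-95085459), which held 3 copies, 62.7% of 3272 merged regions of like length held at least 1. The windows below are 67 bases of the forward strand of GRCm38, with TGAGTCA or its complement in capitals, chosen from the Jun, Fos and Fosl2 regions called for the difference in LPS change and from the Fosb region with the largest fall.
Jun, chr4:95081823-95081889: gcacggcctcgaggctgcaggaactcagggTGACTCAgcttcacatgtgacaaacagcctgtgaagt
Jun, chr4:95084194-95084260: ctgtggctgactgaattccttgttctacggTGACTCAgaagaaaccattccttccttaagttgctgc
Fos, chr12:85437875-85437941: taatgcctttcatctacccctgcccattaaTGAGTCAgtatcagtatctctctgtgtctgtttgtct
Fosb, chr7:19316751-19316817: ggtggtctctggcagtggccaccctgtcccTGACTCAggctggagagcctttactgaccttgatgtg
Fosl2, chr5:32173164-32173230: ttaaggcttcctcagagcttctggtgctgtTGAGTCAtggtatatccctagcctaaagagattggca

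The Fos region centred 36.8 kb before the start held 3 matches, the Fosb region 8.35 kb before the start 4 and the Fosl2 region 37.7 kb after the start 1, where 59.5%, 78.7% and 49.3% of regions of like length held any. The Jun region 37.8 kb before the start held none of TGAGTCA, TGACGTCA and AAAGGTCA, and 59.3% of regions of like length held TGAGTCA.

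At 1 h in WT, 20 of 47 flanking regions tested were called, 6 higher and 14 lower, beside 40.9% of all 42435 regions called and 25.9% called lower. Around Jun 3 of 5 fell. The Jun region 31 kb before the start had 194, 175 and 161 normalized tags at 0 h, 8.14, 19.3 and 10.3 after 1 h and 71.8, 68.1 and 62.6 after 18 h in WT, a change at 1 h of -3.07 ± 0.51 (adjusted p = 7.5e-05). The next region, 37.8 kb before the start (chr4:95088073-95092031), went from 59.1, 81.9 and 67.3 to 0, 0 and 7.42, a change of -2.71 ± 0.56 (adjusted p = 5.2e-04). The large Jun region 50.6 kb before the start went from 1298, 1284 and 1242 to 453, 411 and 410.2. The Fosb region 8.35 kb before the start (chr7:19315053-19321757) fell most, from 412, 408 and 403 to 47.4, 18.5 and 13.9, a change of -3.62 ± 0.43 (adjusted p = 2.5e-06).

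Other regions gained acetylation, so the neighbourhood of a gene did not move as 1 unit. Around Fos 5 regions fell and 2 rose at 1 h in WT. The region 47.2 kb after the Fos start (chr12:85505095-85537176) went from 401, 375 and 397 to 3752, 4066 and 3779.8, a rise of 3.27 ± 0.12 (adjusted p = 3.7e-11), while Pol II over Fos and H3K27ac at its start fell. In KO it went from 287, 282 and 284 to 3597, 2326 and 2496, a rise of 3.23 ± 0.12, which was 3.04 without both replicate 1 libraries and 3.62 without the other 3. The Fosl2 region 30.9 kb after the start (chr5:32162341-32170971) rose in WT from 37.1, 24.6 and 26.0 to 192, 195 and 191, by 2.38 ± 0.54 (adjusted p = 0.0011).

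At 18 h in WT 20 of 46 were called, 6 higher and 14 lower, beside 39% of 41901 regions and 25.5% lower. In KO 11 of 48 were called at 1 h beside 27.3% of 45096, and 22 of 48 at 18 h beside 40.1% of 46330. Without both replicate 1 libraries these counts were 12 and 21, and without the other 3 they were 20 and 21. All 5 Jun regions tested were lower at 18 h than at 0 h in both genotypes, with log2 changes of -2.33 to -1.27 in WT and -2.24 to -1.11 in KO. Of the Fosl2 regions, 4 of 5 tested in WT and 5 of 6 in KO were lower at 18 h, and none was higher.

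Between genotypes, limma called 0 of 45 flanking regions at 0 h, with 7 at an unadjusted p under 0.05, beside 1.87% of 41706. At 18 h 1 of 41 was called beside 3.7% of 37148, a region 6.39 kb after the Jund start that had 45.1, 13.9 and 10.8 in KO and no called region in WT. Its difference was 1.59 ± 0.36 (adjusted p = 0.010), and 1.16 without KO 18 h replicate 1, the highest of the 3. At 1 h 10 of 49 were called, 9 higher and 1 lower in KO, beside 14.2% of 40791 called and 9.7% called higher. These counts rest on the libraries that stood apart, since 20 were called without both replicate 1 libraries and 4 without the other 3.

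The Jun region 31 kb before the start had 22.4, 144 and 149.5 in KO at 1 h, where replicate 1 stood near the WT values and replicates 2 and 3 near the KO 0 h values of 112, 112 and 116. Its difference from WT was 2.07 ± 0.51 (adjusted p = 0.0084), 2.83 without both replicate 1 libraries and 0.55 ± 0.28 (adjusted p = 0.20) without the other 3. The Jun region 37.8 kb before the start had 24.8, 129 and 104, and its difference was 2.77 ± 0.56 (adjusted p = 0.0028). It was 3.39 without both replicate 1 libraries and 1.53 ± 0.47 (adjusted p = 0.042) without the other 3, the last from a single KO 1 h library of 24.8 normalized tags.

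Of the other regions called higher in KO at 1 h, 2 lay before Fos, 51.8 kb (1.5 ± 0.40) and 19.2 kb (1.12 ± 0.26) from the start, and 2 around Jund, 16.3 kb before (1.06 ± 0.25) and 21.0 kb after it (1.15 ± 0.35). Further ones were 13.5 kb before Fosl2 (1.08 ± 0.30) and 42.7 kb before Junb (1.74 ± 0.49). The Fosl2 region at 13.5 kb had 21.4, 15.3 and 13.7 in KO at 1 h and 10, 0 and 0 in WT. The Jund region at 16.3 kb had 11.1, 6.15 and 16.8 in KO and no called region in WT. Calling thresholds at 1 h were 6.71 to 8.15 normalized tags in WT and 5.05 to 6.37 in KO, so both regions lay near them. Without the 3 libraries, which leaves 1 KO 1 h library, the Fosl2 region was at 1.32 and the Jund region at 16.3 kb at 1.08. The Fos regions were then at 0.40 and 0.14 and the Jund region at 21.0 kb at 0.31. The Junb region had 0, 45.4 and 57.8 in KO at 1 h and no called region in WT at 1 h, so that without KO replicates 2 and 3 neither group has a value there and it was not tested.

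At the Fosb region 8.35 kb before the start, KO at 1 h had 31.1, 161 and 187, a difference of 1.72 ± 0.42 (adjusted p = 0.0089), also called higher. It was 2.44 without both replicate 1 libraries and 0.28 ± 0.36 (adjusted p = 0.63) without the other 3. The Fosl2 region 30.9 kb after the start was the 1 called lower, with 196, 21.1 and 27.7 in KO. Its difference of -1.70 ± 0.53 (adjusted p = 0.025) was -2.57 without both replicate 1 libraries and 0.02 ± 0.27 (adjusted p = 0.96) without the other 3. Replicate 1 and replicates 2 and 3 of the KO 1 h group thus gave different answers at these regions, and which libraries carry the right label cannot be told apart with these data.

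The difference in LPS change was called at 4 of 49 regions at 1 h beside 3.11% of 47703, and at 0 of 48 at 18 h, with 9 at an unadjusted p under 0.05, beside 1.63% of 47577. The 4 were the Jun regions 31 kb (2.66 ± 0.72, adjusted p = 0.046) and 37.8 kb (3.03 ± 0.79, adjusted p = 0.040) before the start, the Fos region 36.8 kb before (1.02 ± 0.23, adjusted p = 0.019) and the Fosl2 region 37.7 kb after (-1.75 ± 0.46, adjusted p = 0.042). The Fosl2 region had 0, 18.4 and 0 in WT and 14.3, 19.9 and 19.2 in KO at 0 h. At 1 h it had 67.8, 70.9 and 59.9 in WT and 54.0, 30.3 and 23.2 in KO. Part of its difference thus came from WT 0 h libraries without a called region. Without both replicate 1 libraries the 4 differences were 3.42, 3.65, 1.25 and -2.02, called in each case. Without KO 1 h replicates 2 and 3 and KO 18 h replicate 1 they were 1.15 ± 0.34 (adjusted p = 0.061), 1.80 ± 0.57 (adjusted p = 0.077), 0.55 ± 0.14 (adjusted p = 0.032) and -1.22 ± 0.57 (adjusted p = 0.24), and none of the 4 passed both criteria. The Fos region passed the adjusted p there but not the fold.

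**Figure D5:**
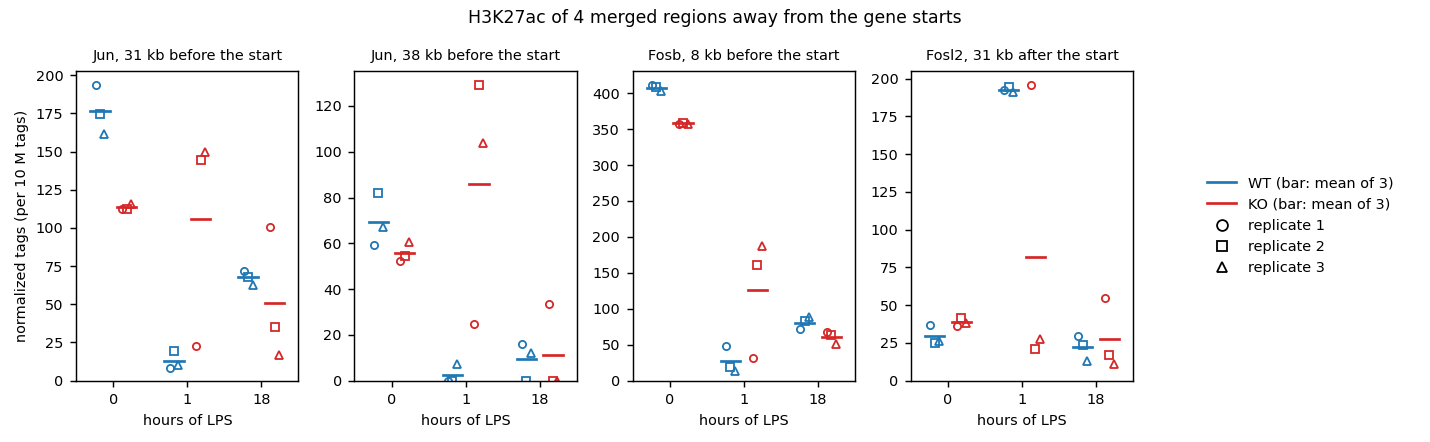
H3K27ac of 4 merged regions, in normalized tags per 10 M tags (vertical axis, from 0), against hours of LPS, with WT in blue, KO in red, markers for replicates 1 to 3 and a bar for the mean of 3. In the KO 1 h group replicate 1 (circle) lies with the WT libraries at the Jun 31 kb, Fosb and Fosl2 regions, and replicates 2 and 3 lie apart from it.

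The 6 inputs, sequenced without an antibody, gave a background for these windows. In the Pol II windows the highest input value was 27.5 for Jun, 81.9 for Junb, 24.1 for Jund, 42.6 for Fos, 23.5 for Fosb, 6.95 for Fosl1 and 56.4 for Fosl2. All 18 Pol II libraries exceeded it at Jun, Junb, Jund, Fos and Fosl2, 17 did at Fosb and 15 at Fosl1, where 2 of the 3 KO libraries at 18 h were below it. All 18 H3K27ac libraries exceeded the highest input at all 7 starts.

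Among the members, Pol II moved together across the 18 libraries most closely for Fos and Fosl1 (r = 0.938) and for Jun and Fos (0.882), and in opposite directions for Jun and Junb (-0.879). These libraries share the genotype and LPS groups, and no test was made. Over the same 18 libraries the genes most like Jun among 9704 candidates were Cttnbp2nl (r = 0.9912) and Dhx34 (0.9908). For Junb Dnajb2 (0.9832) is given, for Jund they were Myof (0.879) and Cd52 (0.8501), and for Fos Selenop (0.9847) and Trmt61a (0.9833). For Fosb they were Amacr (0.9846) and Pyroxd1 (0.984), for Fosl1 Pgm2l1 (0.9759) and Ctdsp2 (0.9684), and for Fosl2 Nek6 (0.9963) and St8sia4 (0.9959). Jund thus had the least close match of the family.

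Other genes of the pathway were read by list. Of 9 bZIP partners, which dimerize with Jun proteins or compete for AP-1 sites, 8 were called for LPS at 1 h in WT, 5 higher and 3 lower, beside 86.9% of all genes called. Jdp2, a repressor that dimerizes with Jun proteins, rose by 6.24, Batf by 1.29 and Atf3 by 1.01 on the log2 scale. In KO against WT at 1 h 2 of 9 were called beside 45.6% of all genes, both lower, Jdp2 at -0.56 and Atf3 at -0.16. At 18 h it was 5 of 9 beside 20.9%, Jdp2 (1.05) and Batf (0.33) higher and Batf3 (-0.52), Atf7 (-0.33) and Atf3 (-0.17) lower. The partners' median at 1 h was 0.00, against 0.26 for the members and 0.24 for all genes. With centred medians Jdp2 was at -0.81 at 1 h and 1.19 at 18 h, and 4 of 9 partners were called at 1 h, all lower, and 3 at 18 h, Jdp2, Batf and Batf2, all higher. Of all genes 1903 were then higher and 2556 lower of 12079 at 1 h, and 1952 higher and 992 lower of 12806 at 18 h.

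Upstream of AP-1, 8 of 16 genes of the MAP kinase cascade were called in KO against WT at 1 h, 6 higher and 2 lower, with a median of 0.28, close to the 45.6% of all genes called and 38.1% called higher. Map2k7, a kinase that activates JNK, was at 0.98 and Map2k3, which activates p38, at 0.72. Of 7 factors of the serum response and MEF2 families 6 were higher, with a median of 0.42, among them Mef2c at 1.23 and Srf, which drives Fos, at 0.46. Of 9 MAP kinase phosphatases, which switch MAP kinases off, 7 were higher and 1 lower, with a median of 0.56; Dusp6 was at 0.96, and Dusp2 was lower at -0.48. These counts stand beside the same 45.6% and share the shift of all genes at 1 h. With centred medians 3 cascade genes were higher and 4 lower beside 1903 higher and 2556 lower of 12079 genes, 2 of the 7 factors were higher with Mef2c at 0.98 and Srf not called at 0.21, and 4 phosphatases were higher and 2 lower with Dusp6 at 0.71.

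At 18 h 8 of the 16 cascade genes were called beside 20.9% of all genes, 3 higher and 5 lower, with Rps6ka1 at -0.69, Mapk14, the p38 kinase, at -0.66 and Map2k3 at -0.57. With centred medians the split turned to 4 higher and 3 lower, beside the 1952 higher and 992 lower of 12806 genes, and these 3 genes stayed lower. Of the 7 factors Mef2c (-1.01) and Elk1 (-0.61), a partner of Srf, were lower. Map2k3 and Mef2c were thus higher in KO at 1 h and lower at 18 h, and with centred medians they kept these signs and calls, at -0.43 and -0.87 at 18 h. The phosphatases ran from -0.34 for Dusp6 to 0.42 for Dusp8 at 18 h, and neither passed.

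Of 15 AP-1 target genes 9 were called at 1 h, 5 higher and 4 lower, beside 45.6% of all genes called and 38.1% called higher, with a median of -0.03. Timp1, an inhibitor of metalloproteinases, was higher at 1.71, whereas the inflammatory genes Ptgs2 (-0.89), Ccl2 (-0.66), Tnf (-0.38) and Il6 (-0.37) were lower in KO. At 18 h 6 of the 12 tested were called beside 20.9% of all genes, 5 higher and 1 lower, with Il6 at 1.85, Ptgs2 at 1.15, Il1b at 0.76, Tnf at 0.28, Cd44 at 0.20 and the lower Hmox1 at -0.41. For Il6, Ptgs2 and Tnf the sign of the KO difference was thus lower at 1 h and higher at 18 h, the reverse of Jun and Fos. With centred medians 1 target was higher and 7 were lower at 1 h, 7 were higher and none lower at 18 h, beside the 1903 higher and 2556 lower of 12079 genes at 1 h and the 1952 higher and 992 lower of 12806 at 18 h on that scale. Il6, Ptgs2 and Tnf kept both signs and calls, with Il6 at -0.62 and 1.99.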

How the data were processed

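Pol II and H3K27ac ChIP-seq and input libraries were analysed from the deposited region lists, which the authors made with HISAT2 2.1.0 and HOMER on mm10, per the labels and file headers. The deposited unit is a signal, normalized tags per 10 M tags, in regions found per library with windows of 500 bp, a Poisson p of 0.001 and stitching within 1000 bp, without input. Here a region's tags were shared out by overlap over each protein-coding gene plus 500 bp (Pol II) or within 2500 bp of the start (H3K27ac), using GENCODE vM21 on GRCm38, the assembly of mm10; 54 entries with a shared symbol were left out. Values as log2(tags + 10) were fitted with limma 3.58.1 in R 4.3.3 over 6 group means of 18 libraries, with an intensity trend and Benjamini-Hochberg adjustment. Features with a value in 2 or more of the 3 libraries of either group were tested. Scripts were tested on simulated data. Regions were merged with bedtools 2.31.1. Promoter sequences are RefSeq's (GRCm38.p6), with entries for Jun, Junb, Jund, Fos, Fosb and Fosl2 matched; the Fosl2 entry starts inside the annotated gene and was not used.

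All members, and by likeness the 2 best correlated genes each, were named by rule, except that a marker list and 1 gene of the likeness ranking are not reported here. Members and lists were chosen with earlier results of these data known. Alternatives changed the pseudocount, filter, scaling, window, regions counted whole, a replicate block and each library in turn; the fits leaving out the H3K27ac libraries that stood apart were added after the data were seen.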

Additional observations from a re-analysis of the deposited data

Results flagged for a closer look

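The genotype difference in the LPS change passed its own test for 9 results. For Pol II at 1 h this was Jun, at 0.88 on the log2 scale. For Pol II at 18 h these were Fosl2 at -0.47, Jund at -0.37, Fos at -0.51 and Fosl1 at -1.47. For H3K27ac regions at 1 h these were the Jun regions centred 31 kb and 37.8 kb before the start, at 2.66 and 3.03, the Fos region 36.8 kb before the start, at 1.02, and the Fosl2 region 37.7 kb after the start, at -1.75. Of the 5 Pol II results, Jun, Fosl2 and Fosl1 were also called with library medians centred, and the Fosl1 window overlaps Ccdc85b. The 4 region results rest on the libraries labelled KO 1 h replicates 2 and 3. For the Fosl2 one, no region was called in WT 0 h replicates 1 and 3. Single libraries that stand apart within a group of 3 were not tested by Dixon's criterion, which was set for groups of 4 or more.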

How the results depend on the processing

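Of 71 single results, 32 were called in each setting tried, and of 1091 alternative values 6 changed direction. These were Fosb with LPS at 1 h in KO (0.24) and the Fosl1 difference in LPS change at 18 h (0.12) within 500 bp of the start, Fosl2 with LPS at 1 h with centred medians (0.49 in WT, 0.28 in KO), Junb in KO against WT at 1 h with regions counted whole (-0.12) and the Fosl2 region 30.9 kb after the start without KO 1 h replicates 2 and 3 and KO 18 h replicate 1, called the 3 libraries below (0.024). At the Fosl1 start no region was called at 18 h in either genotype, so that value carries only the 0 h difference. Otherwise the cause was not tested. Regions are listed only above a depth-dependent threshold of 4.88 to 8.15 normalized tags, so low values such as Fosl1 after LPS are the least certain.

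Pol II counts of members called moved as follows. KO against WT gave 1 at 0 h (2 with quantile normalization; 0 to 1 leaving out 1 library), 4 at 1 h (1 centred, 1 quantile, 2 without a filter, 2 in the start window; 2 to 4) and 4 at 18 h (2 in the start window). LPS at 1 h in KO gave 6 (3 in the start window). The difference in LPS change gave 1 at 1 h (2 centred, 2 quantile, 3 whole; 1 to 2) and 4 at 18 h (2 centred, 1 quantile, 0 in the start window; 2 to 4).

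H3K27ac start counts are given as all libraries, then without both replicate 1 libraries, then without the 3 libraries; both exclusions were chosen after seeing the data. KO against WT gave 0, 2 and 2 at 0 h, 2, 4 and 0 at 1 h (1 within 1000 bp; 0 to 2 leaving out 1 library) and 0, 2 and 2 at 18 h. The difference in LPS change gave 0, 4 and 0 at 1 h (0 to 2) and 0, 2 and 1 at 18 h (0 to 1). LPS at 18 h gave 2, 5 and 6 in KO (1 centred, 1 without a filter, 1 within 1000 bp, 4 whole; 1 to 3) and 4, 5 and 5 in WT (1 quantile), and LPS at 1 h gave 5, 6 and 6 in WT and 5, 6 and 5 in KO (2 without a filter, 3 with a pseudocount of 1, 3 within 1000 bp; 2 to 3).

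Flanking region counts in the same order were 0 at 0 h (1 by adjusted p alone; 0 to 2), 10, 20 and 4 at 1 h (21 by p alone, 6 centred; 2 to 20) and 1, 3 and 3 at 18 h (4 by p alone; 1 to 2). The difference in LPS change gave 4, 20 and 1 at 1 h (0 to 17) and 0 at 18 h (1 by p alone; 0 to 1). LPS by p alone gave 33 and 34 in WT for 20 and 20, and 21 and 35 in KO for 11 and 22, with 20 at 1 h without the 3 libraries.

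Same-numbered libraries did not deviate together (r from -0.072 to 0.107 for Pol II and from -0.432 to 0.079 for H3K27ac). No pairing by number was thus seen, but 3 libraries per group cannot exclude one. With a replicate block the H3K27ac counts for LPS in KO were 3 at 1 h and 1 at 18 h, the flanking count for the difference in LPS change at 1 h was 1, and the other counts stayed within 1.5 times.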
